A study of Mus musculus with 17 samples.

Results

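Acetylation of histone H3 at lysine 56 (H3K56ac) was compared between untreated mouse embryonic stem cells that lacked Sirt6 (KO) and untreated cells that carried it (WT). The material was the peak list that the authors deposited for 1 KO library, with 2235 peaks, and for 1 WT library, with 2750 peaks. These 4985 peaks are part of 21442 in the 8 acetylation lists of the series. Peaks that overlapped by 1 bp or more were merged into 3598 regions, of which 859 were called in KO only, 1369 in both lists and 1370 in WT only. The call of a peak therefore set each region's class, and the class sizes are a description.

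The series holds 17 samples, which cover H3K9ac and H3K56ac with and without retinoic acid (RA, a differentiating agent), Sirt6 itself, whole-cell extracts and a 5-hydroxymethylcytosine assay. KO and WT cells were both derived from strain 129 mice. Both were kept with leukemia inhibiting factor on irradiated fibroblast feeders, which were removed by a short plating step. Neither received RA, and the number of clones behind each line is not stated in the labels. The RA-treated KO and WT cells, used below beside them, received RA for 2 days without the inhibiting factor. Whether feeder cells remained was not analysed here. With 1 library per genotype no difference between KO and WT has a replicate check, so no test between genotypes is given. Intervals are 95% intervals that cover counting error over regions only, and regions of 1 library are not replicates.

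H3K56 lies on the lateral surface of the nucleosome, near the point where DNA enters and leaves it, and its acetylation loosens that contact. In mammals the mark is added by histone acetyltransferases such as CBP and p300. Sirt6 is an NAD-dependent deacetylase that binds chromatin and removes acetyl groups from H3K56 and H3K9, and in embryonic stem cells it is known for keeping both marks low at developmental and pluripotency genes. The label KO was checked on Sirt6 itself: the Sirt6 antibody gave 0 peaks in both KO libraries and 14510 in the WT library. These libraries were not matched in depth. The WT one held 2008232 filtered tags, and the KO ones 40006795 and 48956556. The WT Sirt6 peaks, from 1 shallow library with a median summit pileup of 10, were used below to mark regions where Sirt6 was called in cells that had it.

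The 2 H3K56ac libraries differed in depth and in fragment length. The KO library held 5782181 tags after filtering and the WT library 7790807, a ratio of 0.742. The fragment length estimated by the peak caller was 224 bp in KO and 175 bp in WT. Each tag is extended to that length, so a KO tag covers 1.28 times as many bases, and pileup rises with it. The pileup, the number of extended fragments over a peak's summit, cannot pass 2 fragment lengths when 1 tag is kept per position and strand. The highest summits lay at that ceiling, at 448 in KO and 350 in WT. Only 23 shared regions in KO and 18 in WT reached at least 0.5 of it.

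Regions called in both lists were the strong ones. Their median summit pileup was 26 in KO and 33 in WT, which is 4.50 RPM in KO and 4.24 RPM in WT, where RPM stands for pileup per 1000000 filtered tags. The median fold enrichment, the authors' ratio of summit pileup to the local background, was 12.4 in KO and 15.3 in WT. KO-only regions were weaker, with a median pileup of 15 (2.59 RPM) and a median fold of 7.56. WT-only regions had a median pileup of 16 (2.05 RPM) and a median fold of 9.24. Sharing followed the strength of the call. Of the KO regions in the lowest quintile of fold enrichment, 23.9% were also called in WT, and of those in the highest quintile, 92.6%. Of the WT regions, 28.2% in the lowest and 92.3% in the highest quintile were also called in KO. Across all strengths, 61.4% of the 2228 KO regions (59.4% to 63.4%) and 50.0% of the 2739 WT regions (48.1% to 51.9%) were shared.

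At shared regions the summits of KO and WT stood at the same place. The median distance between them was 23 bp, and in 1126 of 1369 regions (82.2%) it was 50 bp or less. It passed 100 bp in 67 regions. The KO summit lay at the higher coordinate in 663 regions and at the lower one in 689, so there was no shift to 1 side. KO peaks were longer than WT peaks in 1208 of the 1369 regions, by a median of 59 bp (55 to 62). The estimated fragment lengths differed by 49 bp, and their part in the length difference was not tested. At Sirt6 peaks the KO peak was longer by a median of 82 bp (74 to 89), and elsewhere by 54.5 bp (51 to 59).

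H3K56ac summits at shared regions were higher in KO than in WT where a Sirt6 peak was called in WT cells. In bulk chromatin a larger share of cells with the mark and more of the mark per cell cannot be told apart. At the 219 shared regions that overlapped a WT Sirt6 peak, the median KO to WT ratio of summit RPM was 1.64 (1.53 to 1.73), and 196 of the 219 were higher in KO. At the other 1150 shared regions the median was 1.08 (1.04 to 1.11), with 652 higher in KO. Over all shared regions it was 1.15 (1.11 to 1.17), with 848 higher in KO. The background of calls past 2-fold over all shared regions was 13.6% higher in KO (186 regions) and 4.02% lower in KO (55 regions). Of the 219 regions at Sirt6 peaks, 70 were at least 2-fold higher in KO, which is 32.0% (26.1% to 38.4%), and 1 was at least 2-fold lower. Away from Sirt6 peaks 116 of 1150 were 2-fold higher, which is 10.1% (8.48% to 12.0%), and 54 were 2-fold lower.

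**Figure D1:**
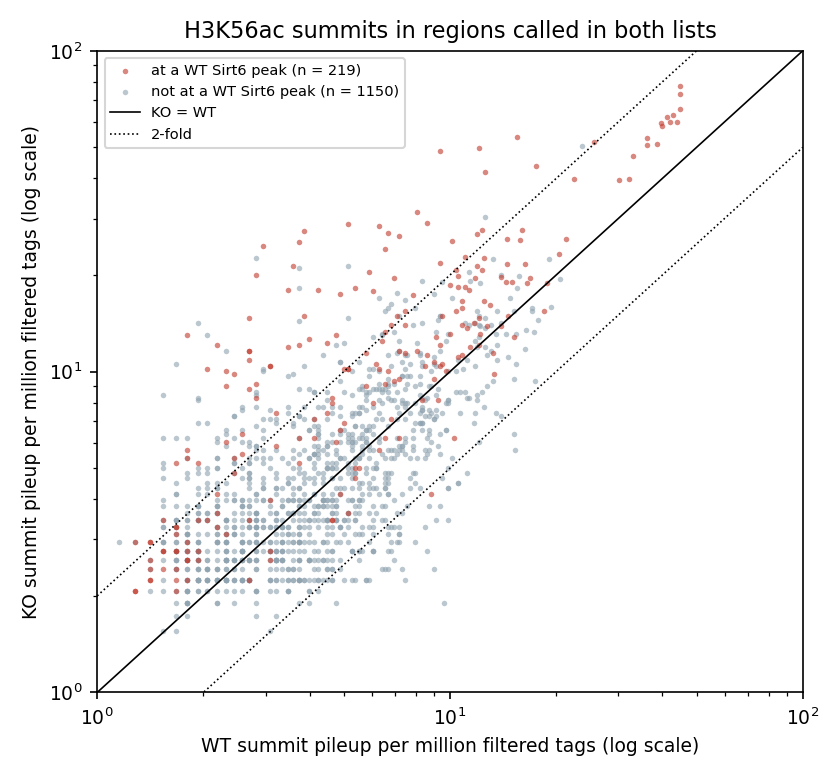
Summit pileup in RPM (per 1000000 filtered tags) of the 1369 shared regions, KO on the vertical and WT on the horizontal axis, both logarithmic; each point is 1 region, the solid line marks equal values and the dotted lines a 2-fold difference. Of the 219 regions at WT Sirt6 peaks (red) 196 lie above the solid line and 70 lie on or above the upper dotted line, and 1 lies on or below the lower one.

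Whether a median lay above or below 1 depended on how the pileup was scaled. Each scaling multiplies every region's ratio by 1 constant, so the order of the sets of regions cannot change with it. When pileup was set against the genome average that depth and fragment length give together, the median ratio was 1.28 (1.20 to 1.35) at Sirt6 peaks and 0.842 (0.813 to 0.867) elsewhere. When it was scaled so that the 995 regions called in all 8 acetylation lists had a median ratio of 1, the ratio was 1.53 (1.43 to 1.61) at Sirt6 peaks and 1.01 (0.972 to 1.04) elsewhere. Over all shared regions these scalings gave 0.895 and 1.07. Under the first scaling, 6.94% of shared regions were 2-fold higher and 10.5% 2-fold lower in KO. The 374 shared regions that were not in all 8 lists showed larger ratios of summit RPM. The median was 1.90 (1.71 to 2.08) in the 83 at Sirt6 peaks and 1.26 (1.17 to 1.35) in the 291 elsewhere. These 374 were picked in part by a missing WT call. They include the 231 shared regions without a call in the untreated WT H3K9ac list, with a median ratio of 1.68, against 1.07 in the 1138 with one.

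Fold enrichment was not higher in KO at most shared regions. Its median KO to WT ratio was 1.01 (0.974 to 1.04) at Sirt6 peaks and 0.828 (0.805 to 0.846) elsewhere, and 0.861 over all shared regions, with 430 of 1369 higher in KO. By this measure 1.68% of shared regions were 2-fold higher in KO and 5.41% 2-fold lower. At Sirt6 peaks 8 of 219 were 2-fold higher and 0 were 2-fold lower. Fold enrichment divides by the local background, which the caller takes as the largest of the genome average and the tag density in a 10 kb window that includes the peak's own tags. That background was recovered from the deposited pileup and fold. Relative to the library's genome average, its KO to WT ratio was 1.42 (1.31 to 1.53) at Sirt6 peaks and 0.999 elsewhere. It cannot fall below the genome average. In KO it equalled that floor at 246 of the 1150 regions elsewhere and at 2 of the 219 at Sirt6 peaks. Where both libraries lie at the floor the ratio is near 1 by construction, so 0.999 does not show equal surroundings. Most tags of the window at Sirt6 peaks were those of the peak. The summit pileup was then taken off the tags that this background implies, a calculation chosen after seeing the data. At Sirt6 peaks a median of 35.2 tags was left in KO and 32.2 in WT, and elsewhere 18.0 in KO and 26.8 in WT. At regions on the floor the window's own tags are unknown and can be fewer, so the values elsewhere are not tag counts. Scaled to filtered tags, the median KO to WT ratio of this remainder was 1.07 at Sirt6 peaks, with 124 of 219 above 1. Elsewhere it was 0.924, a value that the floor enters. The ratio of 1.42 counts the peak's own tags. The 1.07 is a median of the ratios per region, not the ratio of the medians left in KO and WT. The pileup taken off counts tags extended to 224 bp in KO and 175 bp in WT. At equal tag density more is thus taken off in KO, and the part of this in the remainder was not tested.

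**Figure D2:**
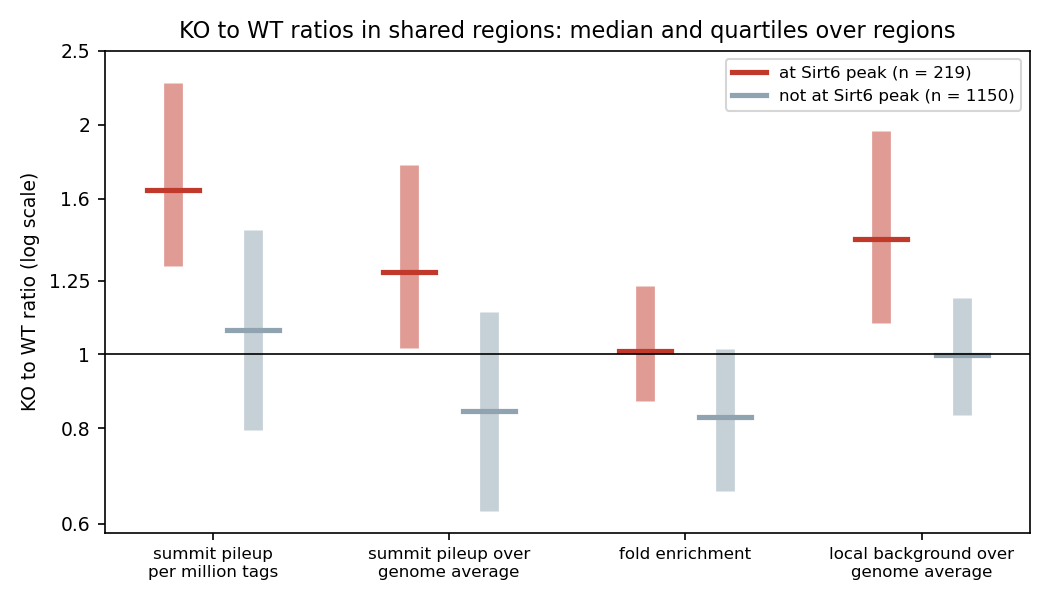
KO to WT ratio (logarithmic axis) of 4 measures in shared regions at WT Sirt6 peaks (red, 219) and elsewhere (grey, 1150); the line is the median and the bar spans the quartiles over regions. The medians at Sirt6 peaks are 1.64, 1.28, 1.01 and 1.42, against 1.08, 0.842, 0.828 and 0.999 elsewhere. The local background ratio is near 1 by construction where both backgrounds equal the genome average.

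The higher ratio at Sirt6 peaks was present at every strength. Shared regions were divided into quintiles by the mean of their KO and WT RPM. At Sirt6 peaks the median ratio by quintile, weakest to strongest, was 1.62, 1.94, 2.32, 1.99 and 1.50, over 33, 12, 21, 35 and 118 regions. Elsewhere it was 1.17, 1.01, 0.911, 1.10 and 1.13. The value of 1.94 rests on 12 regions. Sirt6 summits lay close to the acetylation summits here, at a median of 12 bp from the KO summit.

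The 5 shared regions with the highest KO to WT ratios were strong in KO and faint in WT. At chr8:42533764-42534155 (mm9, as all positions here) the pileup was 142 in KO and 23 in WT, or 24.6 and 2.95 RPM, a ratio of 8.32. It overlapped a WT Sirt6 peak whose summit lay 5 bp from the KO summit. Its H3K9ac was called in KO at 18.1 RPM and was not called in WT. After RA the same region had 26.2 RPM for H3K56ac in KO and 22.5 in WT, so the low value was that of the untreated WT library.

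The other 4 were also strong in KO and faint in WT without RA. At chrX:116367533-116367955, with no Sirt6 peak, H3K56ac stood at 22.7 RPM in KO and 2.82 in WT, and after RA at 21.5 in KO and 20.7 in WT. At chr6:105288638-105289017, also with no Sirt6 peak, it stood at 14.2 RPM in KO and 1.93 in WT, and after RA at 12.9 in KO and 15.1 in WT. In both regions the KO and WT values were alike after RA. At chrX:102057538-102057874, at a Sirt6 peak, it was 13.0 RPM in KO and 1.80 in WT. At chr17:69672565-69673024, at a Sirt6 peak, it was 27.5 RPM in KO and 3.85 in WT, and this region kept a difference after RA, with 17.4 in KO and 7.32 in WT.

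The 5 shared regions with the lowest ratios were all away from Sirt6 peaks. The lowest, chr15:50837167-50837409, had a pileup of 11 in KO and 75 in WT, or 1.90 and 9.63 RPM, a ratio of 0.198. Its H3K9ac was also lower in KO, with 3.74 RPM in KO and 9.72 in WT. After RA the H3K56ac values were 3.36 in KO and 4.88 in WT, closer together than without RA. The next, chrX:53570172-53570439, had 2.42 RPM in KO and 8.98 in WT. The other 3 were chr7:32203929-32204192, chr16:56411803-56412082 and chrX:14759532-14759773, with ratios of 0.302, 0.322 and 0.331.

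The highest summit of all was a place of extreme tag density and low fold enrichment. At chr2:98506386-98507511 the pileup was at the ceiling in both libraries, 448 in KO and 350 in WT, with a fold enrichment of 5.34 in KO and 4.82 in WT. No control library entered the acetylation calls, so places where tags accumulate in any library stay in the lists. The highest fold among shared regions belonged to chr12:50352091-50352463, with 36.6 in KO and 41.7 in WT. Its pileup was 301 in KO and 199 in WT, or 52.1 and 25.5 RPM, and it overlapped a Sirt6 peak. All 5 of the shared regions with the highest KO fold overlapped a Sirt6 peak and were called in all 8 lists. The second of them, chrX:60379570-60379977, had 54.0 RPM in KO and 15.5 in WT.

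KO-only regions divided into 2 unlike sets by Sirt6. Sirt6 peaks of WT cells overlapped 42.8% of KO-only regions (368 of 859), 16.0% of shared regions (219 of 1369) and 7.37% of WT-only regions (101 of 1370). With a −log10 q of at least 10 in all lists these shares were 11.1% of KO-only, 13.6% of shared and 1.09% of WT-only regions, so the KO-only share then lay below the shared one. The 368 KO-only regions at Sirt6 peaks and the 491 elsewhere had the same median pileup, 15. Their median fold enrichment differed, 6.10 at Sirt6 peaks and 8.85 elsewhere. The local background, by which fold enrichment divides, was 2.11 times the genome average at Sirt6 peaks and 1.07 times elsewhere, which is 65.2 and 33.1 tags per 10 kb. In only 12 of the 368, but in 205 of the 491, did the background equal the genome average. With the summit pileup taken off the tags that the background implies, a median of 51.2 was left at Sirt6 peaks and 18.1 elsewhere. The 18.1 is not a tag count, since the windows of the 205 regions at the genome average can hold fewer tags.

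The overlap with Sirt6 was concentrated among the weakest KO-only calls by fold, but not by pileup. In the lowest fold quintile of the KO list 266 of 340 KO-only regions overlapped a Sirt6 peak, which is 78.2% (73.5% to 82.3%). In the next quintiles the share was 25.2%, 10.9%, 17.8% and 18.2%. WT-only regions in the lowest fold quintile of the WT list overlapped Sirt6 in 95 of 430 cases, 22.1% (18.4% to 26.3%), and in the next quintiles in 1.27%, 0%, 0.467% and 0%. The KO-only share was above the WT-only share in every quintile, and the last 0% came from 42 regions, which allows a share of up to 8.38% by the Wilson interval. By quintile of pileup the KO-only share was 43.2%, 51.6%, 37.8%, 28.4% and 35.7%, with no such drop.

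The same was seen when regions were sorted by local background. Among KO-only regions at the genome average 5.53% overlapped a Sirt6 peak (12 of 217), among those with up to 2 times the average 36.5%, and among those with 2 to 4 times 83.9% (198 of 236). Shared regions in these bins gave 0.806%, 4.01% and 30.1%, and WT-only regions 0.792%, 10.4% and 42.9%. Within each of these bins KO-only regions had the highest share, and in all 3 classes Sirt6 peaks were rare at regions whose background equalled the genome average. Bins above 4 times the average held 15 and 13 KO-only regions. Sirt6 peaks are themselves called from tag density, and the part of tag-rich surroundings in the overlap was not tested.

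**Figure D3:**
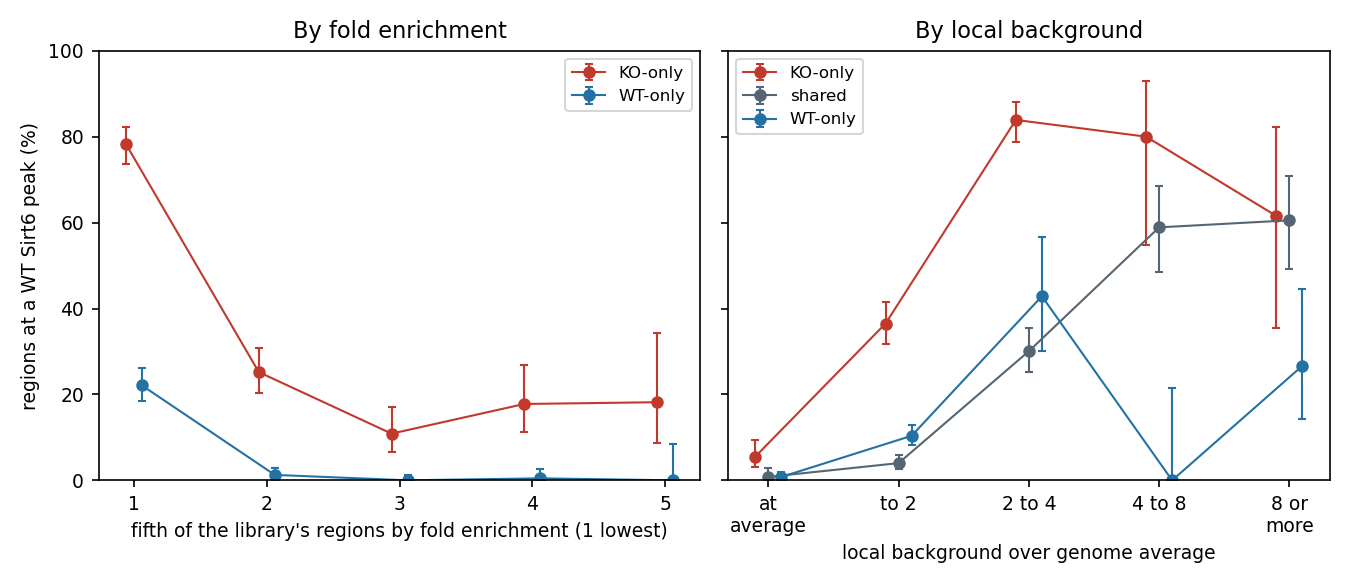
Share of regions that overlap a WT Sirt6 peak, left by quintile of fold enrichment within the KO list (red, KO-only) or the WT list (blue, WT-only), right by local background as a multiple of the library's genome average, with shared regions in grey; bars are Wilson 95% intervals. The KO-only share falls to 25.2% in the second fold quintile, against 78.2% in the lowest, and reaches 83.9% where the background is 2 to 4 times the average.

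The Sirt6 peaks at shared regions were narrower and better centred than those at regions of the other classes. The nearest Sirt6 summit lay a median of 65 bp from the acetylation summit in KO-only regions at Sirt6 peaks, 12 bp in shared ones and 64 bp in WT-only ones. The Sirt6 peak itself had a median length of 566 bp at KO-only, 299 bp at shared and 648 bp at WT-only regions. Its median fold enrichment was 11.2 at KO-only, 8.00 at shared and 12.1 at WT-only regions. KO-only and WT-only regions at Sirt6 peaks were thus alike in these 3 values, and both lay on wide Sirt6 peaks. The 101 WT-only regions at Sirt6 peaks were also weak, with a median pileup of 13 and a median fold of 6.07. The shared regions at Sirt6 peaks pooled unlike sets. In the 136 called in all 8 lists the Sirt6 peak had a median pileup of 75, fold of 4.88 and length of 287.5 bp, with its summit 9 bp away. In the other 83 these values were 24, 12.6, 381 bp and 21 bp. A high pileup with a low fold means a high background, and whether the peaks at the 136 mark bound Sirt6 was not tested.

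The other mark was mostly called in the genotype in which H3K56ac was called, except at WT-only regions with a Sirt6 peak. KO H3K9ac peaks overlapped 50.4% of KO-only H3K56ac regions (47.1% to 53.7%), and WT H3K9ac peaks 5.94% (4.54% to 7.72%). At WT-only regions KO H3K9ac peaks overlapped 32.6% (30.2% to 35.2%) and WT H3K9ac peaks 66.2% (63.7% to 68.7%). At shared regions the shares were 95.6% for KO and 83.1% for WT. Counted by region, H3K9ac was called in KO alone at 395 KO-only regions and in WT alone at 13; at WT-only regions it was called in KO alone at 111 and in WT alone at 571. The 101 WT-only regions at Sirt6 peaks ran the other way, with KO H3K9ac peaks at 36.6% (27.9% to 46.4%) and WT H3K9ac peaks at 8.91% (4.76% to 16.1%). Of these 101, H3K9ac was called in KO alone at 35, in WT alone at 7 and in neither list at 57. Many regions of both classes had no H3K9ac call: 413 of the 859 KO-only and 352 of the 1370 WT-only regions were in neither list. At KO-only regions with a Sirt6 peak this held for 212 of 368. The file headers give both marks of a genotype the same sample number, and whether they came from separate cultures is not stated in the sources used here. The untreated H3K9ac libraries also differed in fragment length, 212 bp in KO and 155 bp in WT.

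KO-only regions at Sirt6 peaks were seldom called in RA-treated cells, and those away from Sirt6 peaks were often called there in both genotypes. Of the 368 at Sirt6 peaks, 10.3% (7.62% to 13.9%) were in the KO H3K56ac list after RA and 6.52% (4.42% to 9.52%) in the WT list after RA. Of the 491 away from Sirt6 peaks, these shares were 58.0% (53.6% to 62.3%) for KO and 40.7% (36.5% to 45.1%) for WT. KO H3K9ac peaks without RA overlapped 42.4% of the regions at Sirt6 peaks and 56.4% of those elsewhere. WT H3K9ac peaks without RA overlapped 1 of the 368 at Sirt6 peaks (0.272%) and 50 of the 491 elsewhere. In none of the 6 other acetylation lists were 56.5% of the regions at Sirt6 peaks and 21.4% of those elsewhere. The regions at Sirt6 peaks had the lower fold enrichment, and its part in the lower share of calls was not tested. WT-only regions were called in the H3K56ac lists after RA in 23.9% of cases for KO and 27.2% for WT, and they split by Sirt6 in the same way. Of the 101 at Sirt6 peaks 5.94% were in the KO list and 6.93% in the WT list. Of the 1269 elsewhere these shares were 25.4% and 28.8%. In none of the 6 other lists were 54.5% of the 101 and 12.4% of the 1269, so the low share of calls was not particular to KO-only regions.

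**Figure D4:**
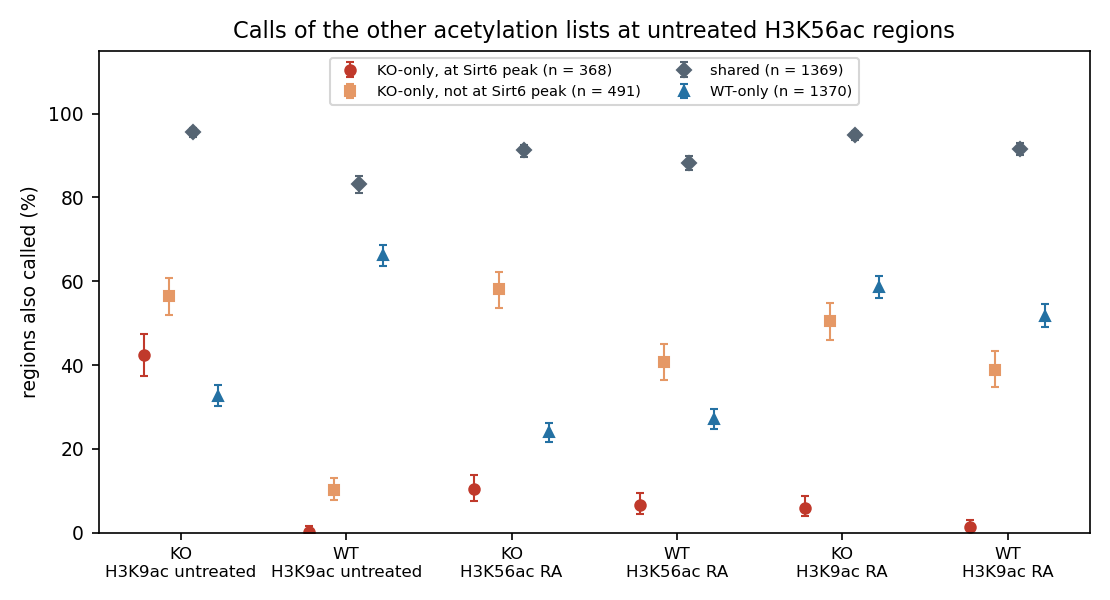
Percentage of untreated H3K56ac regions that were also called in each of the 6 other acetylation lists, with Wilson 95% intervals, for KO-only regions at WT Sirt6 peaks (red) and elsewhere (orange), shared regions (grey) and WT-only regions (blue). Of KO-only regions at Sirt6 peaks 42.4% are in the untreated KO H3K9ac list and 0.272% in the WT one; of WT-only regions 32.6% are in the KO and 66.2% in the WT list.

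The strongest KO-only regions were regions that the other lists held and untreated WT lists lacked. The top 50 KO-only regions by fold enrichment, a set chosen after values were seen, had fold values from 15.5 to 28.3. All 50 were in the untreated KO H3K9ac list and 0 were in the untreated WT H3K9ac list. For H3K56ac after RA, 49 of the 50 were in the KO list and 44 in the WT list. For H3K9ac after RA, 45 were in the KO list and 36 in the WT list. Only 6 of the 50 overlapped a Sirt6 peak. The top 50 WT-only regions by fold had calls in both genotypes: 33 were in the KO and 49 in the WT list of untreated H3K9ac, 30 were in the KO and 36 in the WT list of H3K56ac after RA, and 0 overlapped a Sirt6 peak.

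Single regions show the same. The leading KO-only region by fold, chr16:71414606-71414957, had a KO pileup of 89, or 15.4 RPM, and a fold of 28.3. It was called in 5 other lists, with 13.7 RPM for H3K56ac after RA in KO and 10.9 in WT, and was missing from the untreated WT H3K9ac list. The regions chr4:11994550-11994833, chr6:42724542-42724844 and chr5:108011724-108012016 had the same calls, with KO values of 13.7, 11.9 and 9.86 RPM and WT values after RA of 11.4, 9.60 and 9.60. None of these 4 overlapped a Sirt6 peak.

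The highest KO-only region at a Sirt6 peak, chr15:62601911-62602224, had another set of calls. It had a KO pileup of 80, or 13.8 RPM, a fold of 26.8 and a Sirt6 summit 2 bp away. It was called in KO after RA at 8.77 RPM and in untreated KO H3K9ac at 5.26, and in no WT list and neither H3K9ac list after RA. The next 4 at Sirt6 peaks had KO values of 9.17 RPM at chrY:2530894-2531230, 11.4 at chr3:14983513-14983952, 7.61 at chr6:122865665-122865949 and 7.26 at chr7:83977785-83978155. All 4 were called in the WT H3K56ac list after RA, at 4.07, 6.67, 2.93 and 2.28 RPM, below their KO values after RA of 4.53, 11.3, 6.29 and 3.36. None of the 5 was in the untreated WT H3K9ac list.

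Among WT-only regions the highest fold was 30.4, at chr15:91432120-91432351, with a WT pileup of 79, or 10.1 RPM. All 6 other lists held it: untreated H3K9ac stood at 2.49 RPM in KO and 7.64 in WT, and H3K56ac after RA at 2.34 in KO and 7.32 in WT. KO was lower in each of these pairs, yet above the calling limit. The regions chr3:156392712-156392982, chr19:12222441-12222681 and chrX:108135675-108135897 had 6.67, 7.06 and 6.16 RPM in WT. Untreated H3K9ac stood at 3.19 RPM in KO and 6.74 in WT in the region on chromosome 3, and at 2.22 in KO and 8.03 in WT in the region on chromosome 19. A region on chromosome 18 belongs to the 5 as well, with 8.47 RPM in WT and 6 other lists.

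The call limit itself is seen in the weakest members. The lowest −log10 q in the KO list was 2.72, at chr13:41096557-41096784, with a pileup of 11 and a fold of 4.19. It overlapped a Sirt6 peak and was in 0 other acetylation lists. In the WT list the lowest was 3.13, at chr17:39983288-39983485, with a pileup of 45 and a fold of 2.24 in surroundings of 26.8 times the genome average. Peaks just outside the limit are not in the lists.

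Shared regions with a high KO to WT ratio for H3K56ac also had a high one for H3K9ac, and less so after RA. In the 1107 shared regions where H3K9ac was called in both untreated lists, the median H3K9ac ratio of summit RPM was 1.11, 1.93 at Sirt6 peaks (140 regions) and 1.07 elsewhere. Across these regions the log2 ratios of both marks had a Pearson r of 0.733, given as a description over regions that share a genotype's sample number, depth scaling and fragment length difference. Over the 1539 regions shared by the untreated H3K9ac lists themselves, 12.4% were 2-fold higher and 7.28% 2-fold lower in KO. In the 1162 called in both H3K56ac lists after RA, the median ratio was 0.977, 1.06 at Sirt6 peaks (172 regions) and 0.967 elsewhere, and r was 0.351. In the 1245 called in both H3K9ac lists after RA it was 0.945, and 0.970 at Sirt6 peaks (168 regions), with r of 0.330. After RA the KO to WT spread was also narrower: of the 1646 regions shared by the H3K56ac lists after RA, 1.15% were 2-fold higher and 0.608% 2-fold lower in KO. Fragment lengths were closer there too, 227 bp in KO and 207 bp in WT, and their part was not tested.

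**Figure D5:**
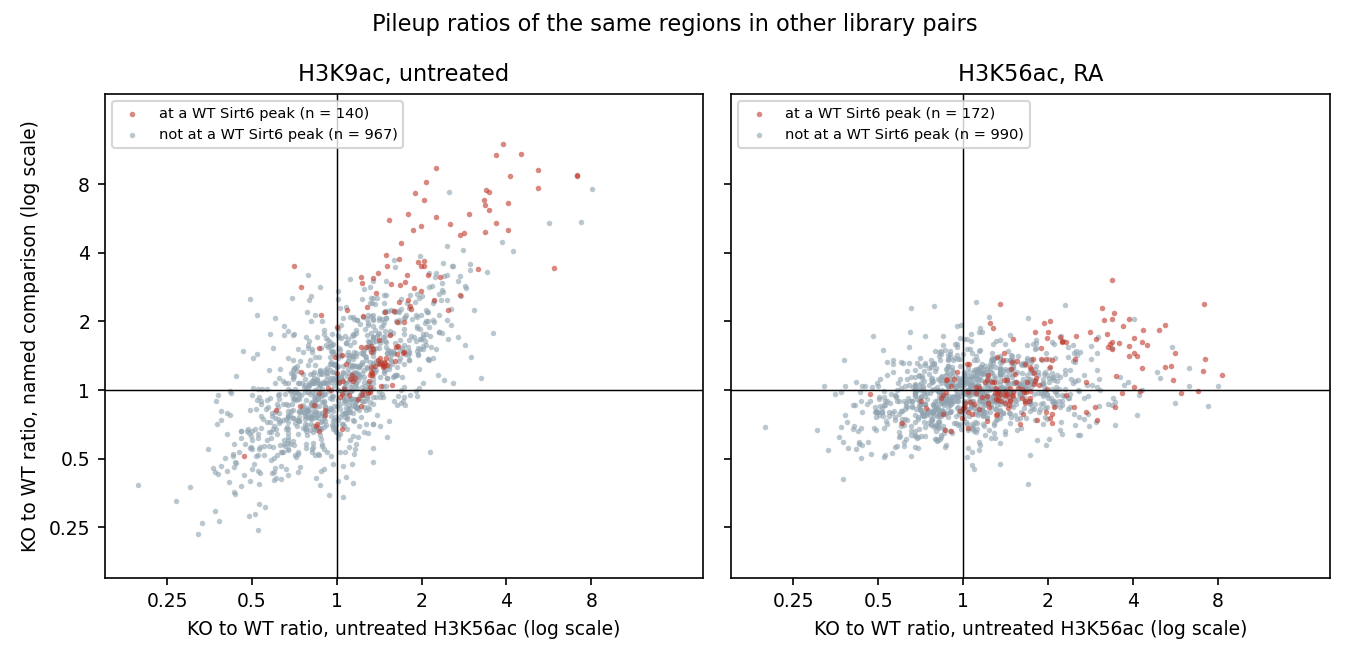
KO to WT ratio of summit RPM in untreated H3K56ac (horizontal) against the same ratio for untreated H3K9ac (left, 1107 regions) and for H3K56ac after RA (right, 1162 regions), logarithmic axes; each point is a shared region, red at WT Sirt6 peaks. Points at Sirt6 peaks have a median vertical value of 1.93 on the left and 1.06 on the right.

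On most chromosomes the balance of classes lay within counting error of that of the whole genome. Over the whole genome there were 0.627 KO-only regions for each WT-only one (0.575 to 0.683), 0.358 at a −log10 q of at least 10, and by construction about as many of each with lists of equal length. Of 20 chromosomes compared (the autosomes and X) 2 had an interval that excluded 0.627. Chromosome X had 49 KO-only and 128 WT-only regions, a ratio of 0.383 (0.270 to 0.536). Chromosome 19 had 27 KO-only and 20 WT-only regions, a ratio of 1.35 (0.729 to 2.54). At the 132 shared regions of chromosome X the median KO to WT pileup ratio was 1.19, within the range over chromosomes of 0.973 to 1.26. Unplaced contigs, not among the 20, held 17 KO-only, 81 shared and 54 WT-only regions. Their ratio of 0.315 (0.171 to 0.551) also had an interval that excluded 0.627. Regions of 1 class seldom lay close together: 6 KO-only, 67 shared and 32 WT-only regions lay within 10 kb of the previous one of their class.

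The authors' deposited table of 5-hydroxymethylcytosine windows touched few of these regions. The 2218 windows higher in KO overlapped 0 of 859 KO-only, 0 of 1369 shared and 2 of 1370 WT-only regions (0.146%). A count of 0 allows up to 0.349% of the KO-only regions and 0.219% of the shared ones. The 1562 windows lower in KO overlapped 10 KO-only (1.16%), 7 shared (0.511%) and 2 WT-only regions (0.146%). Among these, 1 KO-only, 2 shared and 2 WT-only regions had a local background of 8 or more times the genome average. Of the windows lower in KO, 283 lie in the stretch chr14:97249501-108091500. There the KO to WT ratio of that assay's input reads, scaled to library size, was 0.393. In that stretch the H3K56ac lists held 6 KO-only, 10 shared and 3 WT-only regions. The median KO to WT pileup ratio of the 10 was 1.35, with 7 of 10 above 1, against 1.22 over the rest of the chromosome.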

How the data were processed

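Per the submitters' processing notes, BWA 0.5.9 aligned the reads to mm9 and MACS2 2.0.10 called the peaks. Per the file headers, the acetylation lists were called per library with no control, a q limit of 0.01, 1 tag kept per position and strand, and a 10 kb local background window; whole-cell extract served as control for Sirt6. The deposited lists give, per peak, the authors' pileup signal at the summit, the −log10 of its p and q, and its fold enrichment (a ratio to the local background, with a pseudocount of 1). The authors' deposited table of 5-hydroxymethylcytosine windows holds read counts, RPKM values, a log2 fold change and p-values from edgeR, and was used for overlap and input counts only.

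Peaks of both lists were merged at 1 bp of overlap, and where a region held several peaks of a list the highest was taken. Pileup was divided by the filtered tags in the header and given per 1000000 tags (RPM). The local background was computed as (pileup + 1) / fold − 1. Depth was 5782181 filtered tags in KO and 7790807 in WT. Shares carry Wilson intervals, ratios of counts exact (Clopper-Pearson) intervals and medians order-statistic intervals; with 1 library per group no p-value was computed. Merging and ratios were tested on simulated data. Named regions were the 5 with the highest fold per class and at Sirt6 peaks, the 5 highest and lowest ratios and those nearest the q limit; the highest summits were added. The regions, lists and rules were chosen with earlier results of these data known. Gene positions, gene lists and sequences of mm9 were not analysed here, and 0 columns of per-sample values were left unused. The alternatives tried were a stricter −log10 q limit of 10, 50% overlap, equal list lengths, joining within 1000 bp, autosomes, leaving out regions in all 8 lists, and other scalings. The software was matplotlib 3.10.9, scipy 1.17.1, pandas 2.3.3, numpy 2.4.6 and Python 3.11.15.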

Additional observations from a re-analysis of the deposited data

Results flagged for a closer look

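The balance of calls between genotypes ran the other way in other pairs of lists, which drew attention to it; none of these differences was tested, since each group held 1 library. KO-only regions were 0.627 times as many as WT-only regions for untreated H3K56ac, but 1.46 times as many for H3K56ac after RA, with 591 KO-only and 405 WT-only regions. For untreated H3K9ac they were 1.67 times as many, with 2050 KO-only and 1230 WT-only regions. The ratio of filtered tags, KO to WT, was 0.742 for untreated H3K56ac, 1.11 for H3K56ac after RA and 0.935 for untreated H3K9ac, and the part of depth was not tested. The median KO to WT ratio of pileup in RPM (per 1000000 filtered tags) over shared regions also lay on the other side of 1 after RA, at 0.967, against 1.15 in untreated cells, and that difference was not tested either.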

How the results depend on the processing

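No paired analysis was possible because each group held 1 library, and no replicate could be left out. Of the alternative values for the main results, 103 stayed, 32 moved and 3 turned round. Part of the 103 could not change. Regions in all 8 lists are shared by definition, so leaving them out kept every KO-only and WT-only value. Scaling to total tags before filtering multiplied all pileup ratios by 1 constant, and the median was 1.148 against 1.145. The tally is therefore not a measure of robustness. For ratios, shares, differences and distances, staying meant lying within the counting interval of the main value. For counts of regions the band was wider than counting error. WT-only regions, 959 with lists of equal length against 1370, counted as stayed. So did shared regions, 1136 at a −log10 q of at least 10 against 1369. With lists of equal length KO-only regions were 1.002 times as many as WT-only regions, by construction; the Sirt6 share of WT-only regions was 1.564%, the KO-only minus WT-only difference 40.37 points, and the KO minus WT H3K9ac difference 9.779 points at shared and -42.86 at WT-only regions. Also dividing by fragment length turned the median pileup ratio to 0.8947 and that away from Sirt6 peaks to 0.8421, and gave 1.282 at Sirt6 peaks. At a −log10 q of at least 10 in all lists there were 395 KO-only regions, a ratio of 0.3578, Sirt6 shares of 11.14% (KO-only), 13.64% (shared) and 1.087% (WT-only), a difference of 10.05 points, KO minus WT H3K9ac differences of 49.62 at KO-only and -44.57 points at WT-only regions, a length difference of 62.5 bp and a summit distance of 20 bp; the KO-only Sirt6 share then lay below the shared one. With that limit on the acetylation lists alone, an alternative added after seeing the data, the Sirt6 shares were 14.68% (KO-only) and 2.174% (WT-only), 12.51 points apart. Without regions in all 8 lists 374 shared regions remained, with a Sirt6 share of 22.19%, an H3K9ac difference of 45.72 points, a summit distance of 26 bp, pileup ratios of 1.42 in all, 1.902 at Sirt6 peaks and 1.258 elsewhere, and fold ratios of 0.9881, 1.148 and 0.9473. Scaled to regions in all 8 lists the pileup ratios were 1.069 in all, 1.532 at Sirt6 peaks and 1.006 elsewhere. Without regions at 8 or more times the genome average, also added later, the shared Sirt6 share was 13.33%. The cause of these shifts was not tested except where the construction is named. A region absent from a list had no call there and is not shown to lack the mark; the part of depth in missing calls was not tested.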
